A study of Mus musculus with 17 samples.

Results

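Cell-cycle inhibitors of senescence are described here as 10 genes, Cdkn2a, Cdkn2b, Cdkn2c, Cdkn2d, Cdkn1a, Cdkn1b, Cdkn1c, Trp53, Mdm2 and Lmnb1, in the hippocampus of young and old mice. The genes were chosen by name, and all 10 were found among the 38355 gene identifiers of the count data. Hand-dissected hippocampus came from untreated wild type C57BL/6J mice aged 3, 24 or 29 months, and polyA RNA was sequenced. The 3-month group (3M, n = 5) that was sequenced as single-end libraries was the control of the 24-month group (24M, 6 libraries), and the 3-month group that was sequenced as paired-end libraries (n = 3) was the control of the 29-month group (29M, n = 3). The sex of the animals was not in the labels, and no group carried a transgene or a deletion. Since all 24M libraries were single-end and all 29M libraries paired-end, old age beyond 24 months and library type cannot be told apart. Library totals on genes ranged from 19144461 to 28438296 counts (3M single-end), from 9213474 to 19756411 (24M), from 10977976 to 15054972 (3M paired-end) and from 10991389 to 13563541 (29M). The 24M libraries 1 and 4 differed by less than sampling noise, so that they were used as 1 sample, which left n = 5 at 24M. The p-values measure the spread between these samples. All 10 hippocampal markers checked, Prox1, Neurod6 and Wfs1 among them, passed the filter on low counts at both ages, and their summed level was 1256 ± 113 CPM (counts scaled to library size) at 3M single-end and 1302 ± 66.4 at 24M (SD, n = 5 each).

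Senescence is a lasting arrest of the cell cycle. INK4 proteins, which the Cdkn2 genes encode, bind CDK4 and CDK6, while the CIP/KIP proteins encoded by the Cdkn1 genes bind cyclin-CDK complexes more broadly, and both keep the retinoblastoma protein active. p53 (Trp53) induces Cdkn1a and its own antagonist Mdm2, and lamin B1 (Lmnb1), a protein of the nuclear lamina, is lost from many senescent cells.

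Of the 10 genes, none that was tested met the criteria used for all genes at either age. These were a Benjamini-Hochberg adjusted p no higher than 0.05 and a log2 fold change of 0.5 or more in either direction (edgeR's quasi-likelihood test). Cdkn2a at both ages and Cdkn2b at 29M fell under the filter on low counts and were not tested this way. At 24M, 0 of the 9 genes tested were called, where 1.98% of the 15683 genes tested were, and at 29M 0 of 8 were called, where 1.45% of 15097 were. In so few genes, a count of 0 cannot be told apart from these shares. By direction, 1.34% of all genes were called higher and 0.638% lower at 24M, and 1.34% higher and 0.113% lower at 29M. Without the fold change threshold the count was also 0 of 9 and 0 of 8, beside 5.58% of all genes at 24M and 2.99% at 29M. DESeq2 called 1 of the 9 at 24M, Cdkn1a, and 0 of the 8 at 29M. An unadjusted p under 0.05 was found for 3 of 9 genes at 24M (Cdkn1a, Lmnb1 and Cdkn2d, each lower), beside 26.1% of all genes, and for 1 of 8 at 29M (Cdkn1b, lower), beside 17.3%. The median log2 fold change of the genes tested was -0.07 at 24M and -0.04 at 29M. Groups did not overlap for 2 genes at each age, with every old sample below every young sample: Cdkn1a and Lmnb1 at 24M (3.42% of all genes showed this) and Cdkn2c and Cdkn1b at 29M (10.5% of all genes). None of the 10 had every old sample above every young sample, which 3.15% of all genes showed at 24M and 11.9% at 29M. In bulk tissue, fewer cells of a type and less RNA per cell cannot be told apart.

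Levels of the genes relative to each other were compared per exon length, as RPKM, reads scaled to exon length and library size. Cdkn2d was the highest of the 10 in every group, with 26.4 ± 1.61 RPKM at 3M single-end (SD, n = 5) and 23.2 ± 1.87 at 24M (n = 5). Mdm2, Cdkn1b and Cdkn1c followed at 10.02 ± 0.928, 9.91 ± 1.56 and 9.42 ± 3.32 RPKM in the 3M single-end group, and their samples overlapped. Trp53 was at 4.68 ± 0.142, Lmnb1 at 3.35 ± 0.202 and Cdkn1a at 2.73 ± 1.07 RPKM in that group, and the last pair overlapped. The remaining INK4 genes were far lower, with Cdkn2c at 0.896 ± 0.0486, Cdkn2b at 0.513 ± 0.160 and Cdkn2a at 0.0407 ± 0.0313 RPKM. Cdkn2d, Trp53, Lmnb1, Cdkn1a, Cdkn2c, Cdkn2b and Cdkn2a kept their places in this order in all 4 groups, and Mdm2, Cdkn1b and Cdkn1c exchanged theirs. At 29M the levels of Cdkn2c (0.599 ± 0.0370 RPKM, n = 3) and Cdkn2b (0.579 ± 0.285) overlapped, and at 24M those of Cdkn2b (0.427 ± 0.178, n = 5) and Cdkn2a (0.123 ± 0.0936) did.

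**Figure D1:**
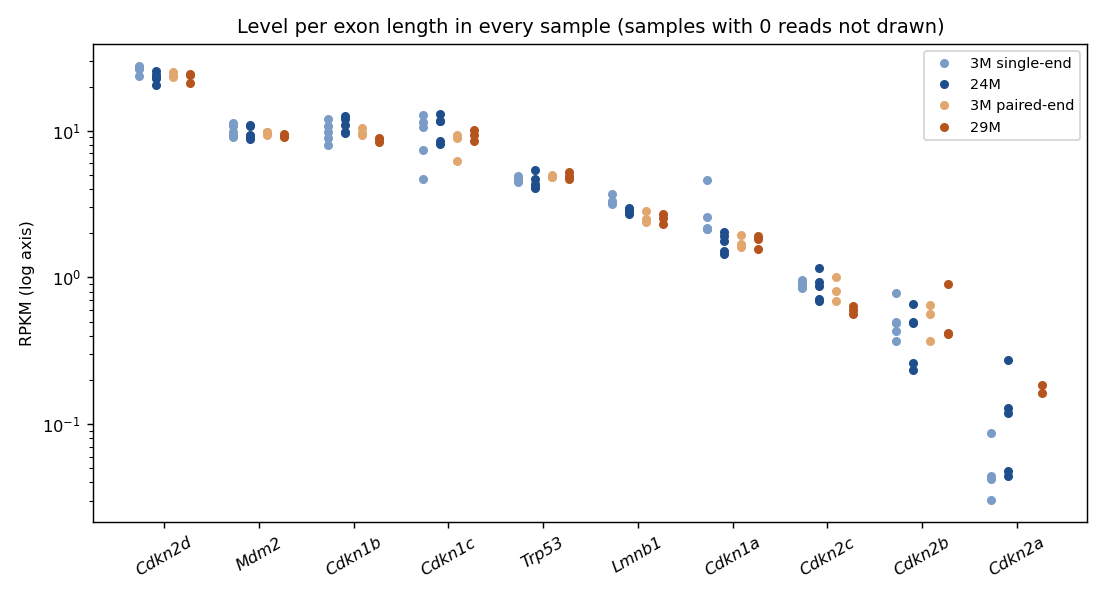
Level of each of the 10 genes per exon length (RPKM, log axis) in every sample, with 1 colour per group. Cdkn2d stands above the rest and Cdkn2a has the lowest mean in every group, overlapping Cdkn2b at 24M; samples with 0 reads are not drawn.

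Cdkn2a, which encodes both p16INK4a and p19ARF, was at the edge of detection at every age, and a count per gene does not separate its products. It had 0, 1, 1, 2 and 1 reads in 3M single-end replicates 1 to 5, and 3, 2, 1, 1, 1 and 3 reads in 24M replicates 1 to 6. The 3M paired-end libraries held 0 reads each, which allows up to 0.0788 CPM over the group (3 counts of 38094141), and the 29M libraries held 0, 2 and 3. No library exceeded 3 reads, and young and old samples overlapped at both ages. The mean was 0.0477 CPM at 3M and 0.144 CPM at 24M, with p = 0.0556 in an exact two-sided permutation test (n = 5 each, unadjusted, smallest possible p 0.00794). At 29M the mean was 0.136 CPM, from 5 reads over the group, with an exact permutation p of 0.4 (n = 3 each), where the smallest possible is 0.1. The limit in the 3M group covers counting error only. Without the filter on low counts, edgeR's adjusted p for Cdkn2a was 0.373 at 24M and 0.276 at 29M.

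Cdkn2b encodes p15INK4b and lies next to Cdkn2a on chromosome 4 (Cdkn2a at chr4:89274471-89294653 and Cdkn2b at chr4:89306299-89311039, both on the minus strand of GRCm38). It was measured at 1.09, 0.675, 0.600, 0.509 and 0.692 CPM in the 3M single-end samples. The 24M samples, given here and below with the mean of replicates 1 and 4 first and then replicates 2, 3, 5 and 6, were at 0.695, 0.910, 0.361, 0.679 and 0.323 CPM. The samples overlapped, and the log2 fold change was -0.26 (SE 0.31, 95% interval -0.92 to 0.41, adjusted p = 0.635 with edgeR). Leaving out 1 library moved it to -0.44 (24M replicate 2), -0.05 (3M replicate 1), -0.09 (24M replicate 3) or -0.15 (24M replicate 6). With 0.509, 0.785 and 0.899 CPM at 3M paired-end and 1.26, 0.571 and 0.581 CPM at 29M, Cdkn2b fell under the filter on low counts and overlapped there too (exact permutation p = 0.8, n = 3 each).

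Cdkn2c, which encodes p18INK4c, was close to even at 24M and lower in each 29M sample. Its values were 2.27, 2.60, 2.296, 2.45 and 2.42 CPM at 3M single-end against 2.50, 2.35, 1.91, 1.87 and 3.12 CPM at 24M. The 24M samples lay on both sides of the 3M samples, with a log2 fold change of -0.07 (SE 0.16, 95% interval -0.40 to 0.27, adjusted p = 0.828 with edgeR). The paired-end values were 1.87, 2.16 and 2.70 CPM at 3M and 1.51, 1.71 and 1.60 CPM at 29M. Here the groups did not overlap, but the difference did not pass the test (log2 fold change -0.47, SE 0.24, 95% interval -0.99 to 0.04, adjusted p = 0.331 with edgeR), at 18 to 33 reads per library.

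Cdkn2d, which encodes p19INK4d, was the most abundant of the 10 genes per exon length. It was at 42.7, 41.4, 43.7, 42.7 and 37.3 CPM at 3M single-end and at 37.5, 40.4, 32.2, 36.1 and 36.0 CPM at 24M. Only 3M replicate 5 lay within the range of the 24M samples. The log2 fold change of -0.19 (SE 0.07, 95% interval -0.34 to -0.05, unadjusted p = 0.0132, adjusted p = 0.0967 with edgeR) did not pass the test. At 29M it was at 38.0, 33.6 and 38.1 CPM against 39.9, 36.3 and 37.9 CPM at 3M, which overlapped (log2 fold change -0.05, SE 0.07, adjusted p = 0.749 with edgeR).

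Cdkn1a, which encodes p21, a p53 target and general CDK inhibitor, had the largest log2 fold change of the 9 genes tested at 24M, toward lower expression. The 3M single-end samples were at 7.55, 9.20, 7.74, 16.4 and 7.66 CPM. The 24M samples were at 6.81, 6.30, 5.15, 7.30 and 5.38 CPM. All 24M samples were below all 3M samples, and 3M replicate 4 stood apart from the other 3M samples. The log2 fold change was -0.64 (SE 0.21, 95% interval -1.09 to -0.18, unadjusted p = 0.00963), with an adjusted p of 0.0847 in edgeR, which does not pass the threshold. Cdkn1a was called lower by DESeq2 (-0.64, adjusted p = 0.0324), with all 4 groups in 1 edgeR fit (-0.64, adjusted p = 0.0332) and with edgeR without 3M single-end replicate 5 (-0.71, adjusted p = 0.0400). Without 3M replicate 4 the log2 fold change was -0.37 (adjusted p = 0.106 with edgeR). At 29M no such difference was seen: 3M paired-end samples were at 6.96, 6.02 and 5.75 CPM and 29M samples at 6.48, 5.52 and 6.83 CPM. These samples overlapped, with a log2 fold change of 0.02 (SE 0.14, 95% interval -0.29 to 0.33, adjusted p = 0.968 with edgeR). The 3M paired-end samples also lay within the range of the 24M samples, a comparison across library types that was not tested.

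**Figure D2:**
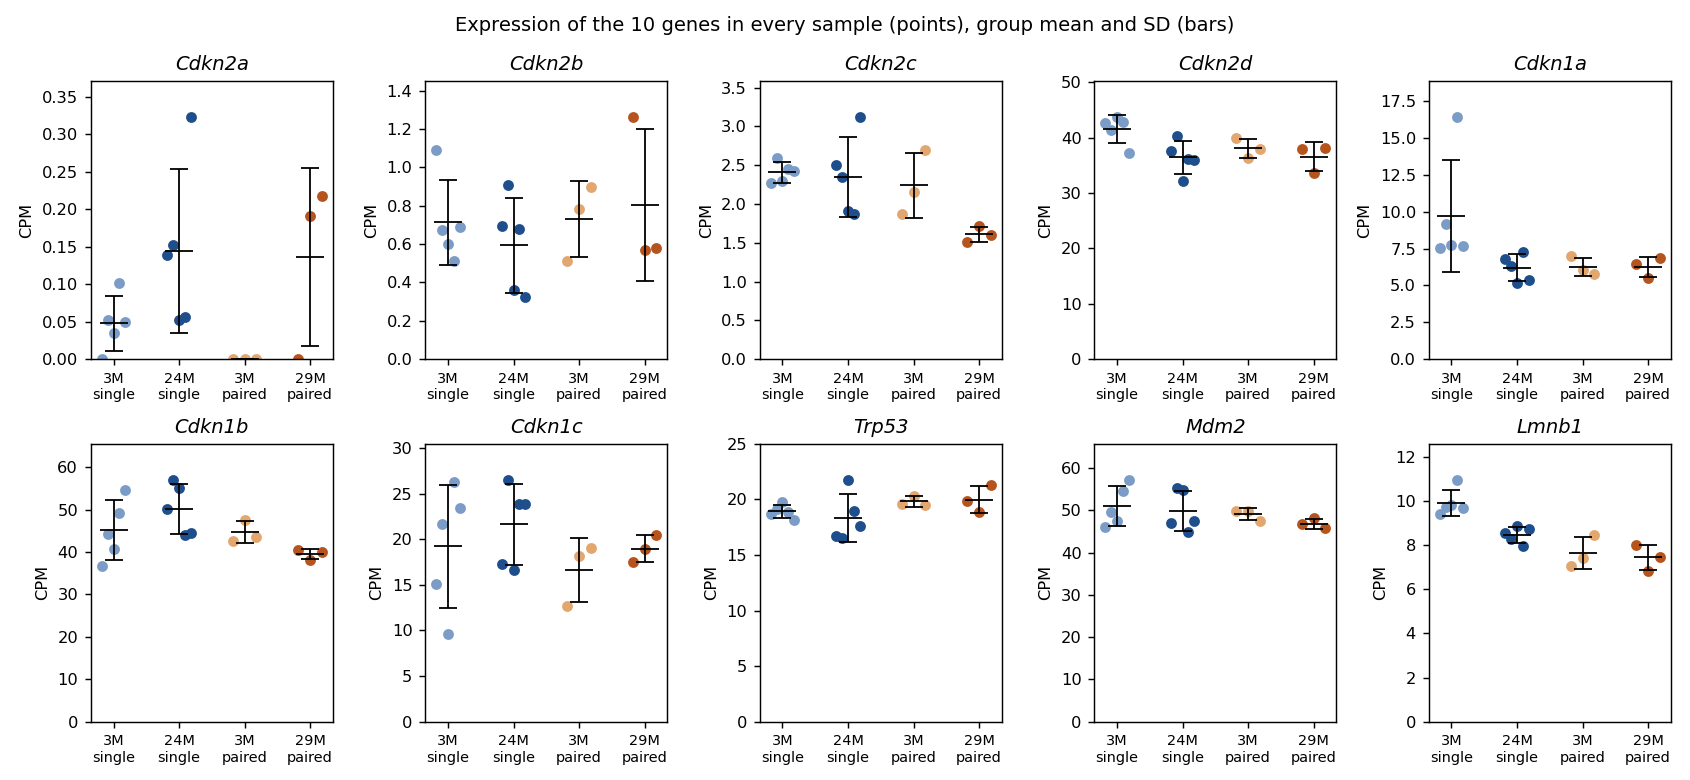
Expression (CPM, axes from 0) of the 10 genes, with a panel per gene, a point per sample and a bar for the group mean and SD. All 24M samples lie below all 3M single-end samples for Cdkn1a and Lmnb1, and all 29M samples lie below all 3M paired-end samples for Cdkn2c and Cdkn1b.

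The 3M single-end replicate with the highest Cdkn1a also had the highest level of striatal genes. Summed over 9 striatum markers, it held 481.7 CPM, while the other 3M single-end samples held 211.8 to 257.4 CPM and the 24M samples 226.2 to 247.9 CPM. Across the single-end samples (n = 10), Cdkn1a and the striatum sum gave a Pearson r of 0.917 (permutation p = 0.1004, adjusted p = 0.251) and a Spearman rho of 0.2485 (permutation p = 0.494, adjusted p = 0.622). Without the 2 samples farthest from the median of the striatum sum, r was 0.216, so the relation rests on those samples. In the paired-end samples (n = 6) r was -0.857 (exact permutation p = 0.0278, adjusted p = 0.139), rho was -0.943 (exact permutation p = 0.0167, adjusted p = 0.102) and r was -0.5875 without the 2 farthest samples. A total of 10 such relations between genes and marker sums were computed, chosen after the values had been seen. The part of the striatal markers in the Cdkn1a difference was not tested, while without that replicate the 24M difference was smaller, as given above.

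Cdkn1b, which encodes p27, gave opposite signs at the 2 ages. It was at 36.6, 44.3, 40.7, 49.2 and 54.7 CPM at 3M single-end and at 50.05, 57.0, 55.2, 44.0 and 44.4 CPM at 24M. These samples overlapped (log2 fold change 0.16, SE 0.11, 95% interval -0.07 to 0.38, adjusted p = 0.372 with edgeR), and the log2 fold change was 0.09 without 3M replicate 1. At 29M it was at 40.5, 38.1 and 40.1 CPM against 42.7, 47.6 and 43.6 CPM at 3M. All 29M samples were below all 3M samples, with a log2 fold change of -0.18 (SE 0.06, 95% interval -0.31 to -0.04, unadjusted p = 0.0157, adjusted p = 0.171 with edgeR).

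Cdkn1c, which encodes p57 and is an imprinted gene, varied widely among young samples. It was at 15.1, 21.6, 9.57, 26.3 and 23.4 CPM at 3M single-end and at 17.3, 26.5, 16.6, 23.8 and 23.9 CPM at 24M. At 3M paired-end it was at 12.6, 18.2 and 19.1 CPM, and at 29M at 17.5, 18.9 and 20.5 CPM. Samples overlapped in both comparisons, with log2 fold changes of 0.17 (SE 0.23, 95% interval -0.32 to 0.66, adjusted p = 0.663) at 24M and 0.19 (SE 0.13, 95% interval -0.09 to 0.46, adjusted p = 0.483) at 29M with edgeR. Without 3M single-end replicate 3, the lowest sample, the log2 fold change at 24M was -0.01, and it was 0.10, 0.31 and 0.09 when 3M replicate 1, 3M replicate 4 or 24M replicate 2 was left out. Leaving out 3M paired-end replicate 1, the lowest sample, changed the 29M value to 0.03, while leaving out 3M replicate 3 or 29M replicate 3 gave 0.28 and 0.12. An antisense gene shares 30.65% of the exon bases of Cdkn1c in GENCODE M21, and a gene on the opposite strand shares 7.68% of those of Cdkn1a. Neither overlapping gene has a row in the counts used here, and the study's methods name the overlap mode as the non-default HTSeq setting and do not name the strand setting.

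The level of Cdkn1c was set beside the summed markers of the choroid plexus, whose most abundant gene here was Ttr. In 3M single-end replicates 1 to 5, their summed level over 10 markers was 5184, 5023, 2097, 8059 and 8710 CPM, so the sample with the least Cdkn1c also had the least choroid plexus signal. Across the single-end samples (n = 10) the Pearson r was 0.897 (permutation p = 0.00136, adjusted p = 0.0136 over the 10 relations) and 0.846 without the 2 farthest samples, while Spearman rho was 0.721 (permutation p = 0.0233, adjusted p = 0.102). The adjustment does not cover the choice of these relations after the values had been seen, so these p-values are a description. In the paired-end samples (n = 6) the relation did not pass the test, and r was 0.542 (exact permutation p = 0.3, adjusted p = 0.5), rho was 0.371 (exact permutation p = 0.497, adjusted p = 0.622) and r was -0.491 without the 2 farthest samples; the difference between library types was not tested. Fibroblast and meningeal markers gave r = 0.5775 (permutation p = 0.0583, adjusted p = 0.194) and rho = 0.697 (permutation p = 0.0306, adjusted p = 0.102) in the single-end samples, and r was 0.629 without the 2 farthest. Pericyte and endothelial markers gave r of 0.159 and 0.163 there (adjusted permutation p = 0.668 for both). The choroid plexus sum itself was 5814 ± 2658 CPM at 3M single-end and 6556 ± 1379 at 24M (SD, n = 5 each), with 0 of 10 markers called at either age by edgeR or DESeq2. The part of these markers in the Cdkn1c values was not tested.

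**Figure D3:**
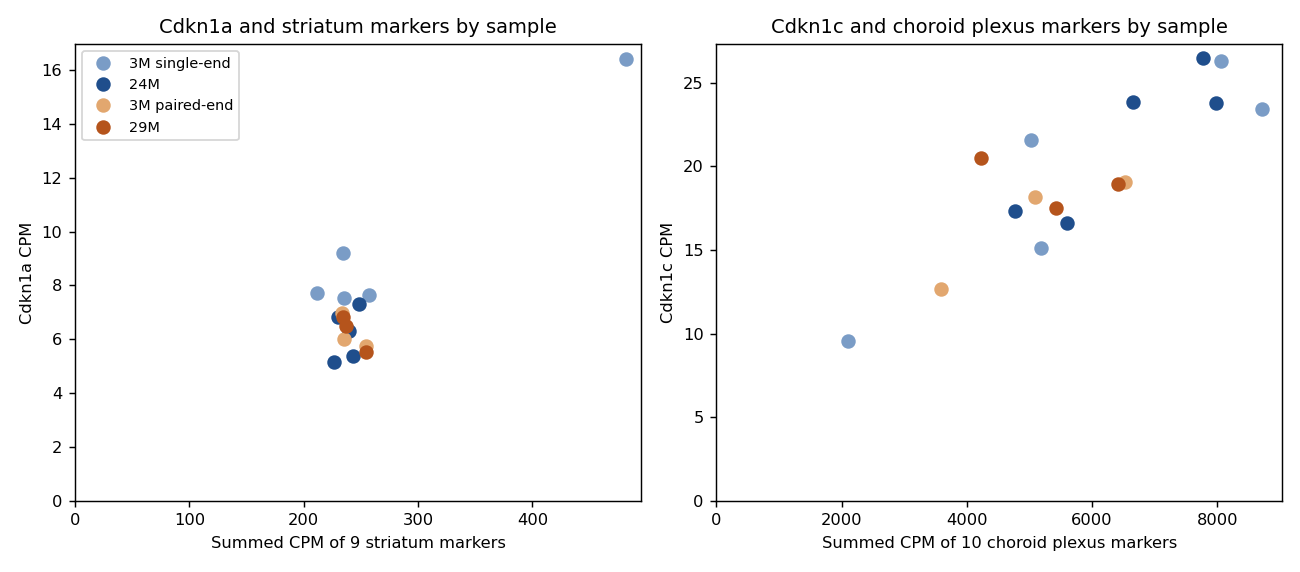
Left, Cdkn1a (CPM) against the summed CPM of 9 striatum markers; right, Cdkn1c (CPM) against the summed CPM of 10 choroid plexus markers, with a point per sample and a colour per group. A single 3M sample (16.4 CPM Cdkn1a, 481.7 CPM striatum markers) lies apart on the left, while on the right the single-end samples spread from 2097 to 8710 CPM of choroid plexus markers.

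Trp53, the gene of p53, was at similar levels in young and old samples. It was at 18.7, 19.1, 19.7, 18.9 and 18.2 CPM at 3M single-end and at 16.7, 16.5, 21.8, 19.0 and 17.6 CPM at 24M. It was at 19.6, 20.4 and 19.5 CPM at 3M paired-end and at 19.9, 18.8 and 21.3 CPM at 29M. The groups overlapped at both ages, and the 95% interval of the log2 fold change ran from -0.21 to 0.13 at 24M (-0.04, SE 0.08, adjusted p = 0.779) and from -0.15 to 0.18 at 29M (0.01, SE 0.08, adjusted p = 0.949) with edgeR. The 24M value was -0.123 without 24M replicate 3 and -0.00435 without 24M replicate 2.

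Mdm2, the ubiquitin ligase that limits p53, was likewise bounded. It was at 46.1, 49.6, 47.4, 54.5 and 57.2 CPM at 3M single-end and at 47.1, 55.2, 54.8, 44.8 and 47.5 CPM at 24M. At 3M paired-end it was at 49.8, 49.9 and 47.6 CPM, and at 29M at 46.7, 48.1 and 45.8 CPM. Samples overlapped, with a log2 fold change of -0.03 (SE 0.08, 95% interval -0.20 to 0.14, adjusted p = 0.851) at 24M and -0.07 (SE 0.06, 95% interval -0.19 to 0.05, adjusted p = 0.573) at 29M with edgeR.

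Cdkn1a and Mdm2 are the 2 textbook p53 targets among the 10 genes. For each, the 250 bases before a RefSeq start site are shown (GRCm38.p6, gene strand, 5′ to 3′). Matches to the letters of the p53 half-site are in capitals. Cdkn1a has 2 RefSeq promoters, and only the one with matches is shown. The Cdkn1a sequence is chr17:29090729-29090978 on the plus strand, and the Mdm2 sequence is chr10:117710759-117711008 on the minus strand.
Cdkn1a: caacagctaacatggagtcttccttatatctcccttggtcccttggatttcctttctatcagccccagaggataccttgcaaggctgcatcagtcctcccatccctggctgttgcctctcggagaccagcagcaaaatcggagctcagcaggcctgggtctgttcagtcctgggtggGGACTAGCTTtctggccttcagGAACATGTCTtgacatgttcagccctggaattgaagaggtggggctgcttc
Mdm2: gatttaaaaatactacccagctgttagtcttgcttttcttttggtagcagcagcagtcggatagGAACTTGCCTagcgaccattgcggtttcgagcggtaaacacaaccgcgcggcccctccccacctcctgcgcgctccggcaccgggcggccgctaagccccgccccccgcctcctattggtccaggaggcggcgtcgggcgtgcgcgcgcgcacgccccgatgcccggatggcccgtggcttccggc
The p53 half-site has 10 letters and was searched on both strands from 250 bases before to 50 bases after each start site. In the Cdkn1a promoter shown, the matches began 73 and 51 bases before its start, at positions -73 and -51, and in Mdm2 at position -186. The other Cdkn1a promoter (chr17:29093519-29093818) held 0 matches. Of the 11 promoters searched, which belong to 8 of the 10 genes, 4 held a match (those of Cdkn2d and Trp53 were the others, at -102 and -75), and 2742 of 32817 mouse promoters did (8.36%). The promoters of Cdkn1c and Lmnb1 were not searched. A match is a description of letters, not a binding site.

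Lmnb1, the gene of lamin B1, was lower in all 24M samples than in all 3M samples. It was at 9.41, 9.72, 9.82, 11.0 and 9.68 CPM at 3M single-end and at 8.55, 8.27, 8.87, 7.97 and 8.71 CPM at 24M. The groups did not overlap, and the log2 fold change was -0.23 (SE 0.08, 95% interval -0.39 to -0.06, unadjusted p = 0.0115, adjusted p = 0.0914 with edgeR), which is under the fold change threshold and does not pass the test. Its 29M samples, at 7.99, 6.85 and 7.48 CPM, overlapped the 3M paired-end samples at 7.05, 7.40 and 8.45 CPM (log2 fold change -0.03, SE 0.13, 95% interval -0.30 to 0.25, adjusted p = 0.937 with edgeR). The highest value of the 3 young paired-end samples was thus within the 24M range and the other 2 were below it, again across library types and not tested.

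The precision of the fold changes differed between genes. The 95% interval lay within 1 log2 unit either way for 8 of 9 genes at 24M, Cdkn1a being the exception, and for 8 of 8 at 29M. It lay within 0.5 log2 units for 6 of 9 genes at 24M and 7 of 8 at 29M. The exceptions were Cdkn1a, Cdkn2b and Cdkn1c at 24M and Cdkn2c at 29M.

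**Figure D4:**
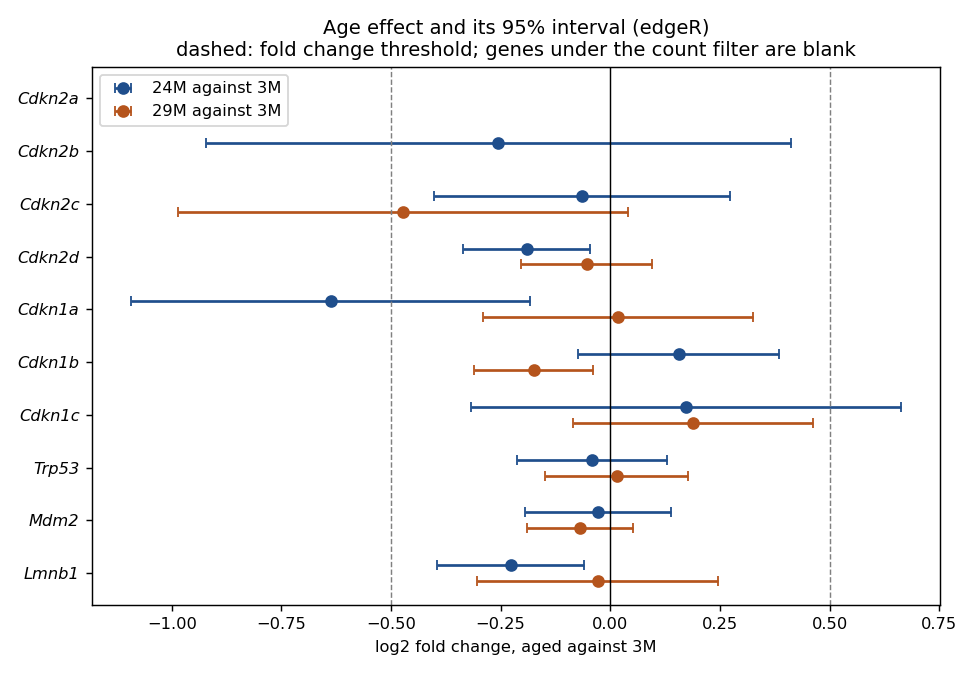
Log2 fold change of each gene at 24M and at 29M against its own 3M group, with 95% intervals from edgeR. Dashed lines mark the fold change threshold of 0.5; Cdkn2a at both ages and Cdkn2b at 29M fell under the count filter and are blank.

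The age effects at 29M and 24M were compared directly. No gene of the 9 tested differed (smallest adjusted p = 0.469, Cdkn1b), and 0 of 16055 genes did in edgeR, where 10.4% had an unadjusted p under 0.05. DESeq2 found 0 of the 9 as well. For Cdkn1b the 29M effect minus the 24M effect was -0.33 on the log2 scale (SE 0.16, 95% interval -0.66 to -0.00454), the one difference of the 9 whose unadjusted p was under 0.05. For Cdkn1a it was 0.65 (SE 0.33, 95% interval -0.04 to 1.34, adjusted p = 0.499 with edgeR), so its 24M difference is not shown to differ from its 29M difference.

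Genes that act around the 10 were summarised by lists, whose counts at an unadjusted p under 0.05 stand beside 26.1% of all genes at 24M and 17.3% at 29M. Their called counts stand beside 1.34% of all genes called higher and 0.638% lower at 24M, and 1.34% and 0.113% at 29M. Of 30 p53 target genes, 28 were tested at 24M, where 0 were called higher and 2 lower, and 26 at 29M, where 0 were called. Bbc3, which encodes the pro-apoptotic protein PUMA, fell from 8.47 ± 0.666 CPM at 3M to 5.75 ± 0.702 at 24M (SD, n = 5 each; log2 fold change -0.58, SE 0.10, adjusted p = 0.0110 with edgeR), and its groups did not overlap. Btg2, an antiproliferative immediate-early gene, fell from 23.9 ± 5.83 to 16.5 ± 0.990 CPM (log2 fold change -0.53, SE 0.14, adjusted p = 0.0406 with edgeR), a call lost in 6 of 11 fits that left out 1 library each (3M replicates 4 and 5 and 24M replicates 2, 3, 5 and 6). At 29M, Bbc3 gave 0.12 on that scale (adjusted p = 0.746 with edgeR), and its 3M paired-end samples were at 5.70 ± 0.388 CPM (n = 3). Btg2 gave 0.26 at 29M (adjusted p = 0.212 with edgeR), with 14.8 ± 1.03 CPM at 3M paired-end and 17.7 ± 2.28 at 29M, and its 3M paired-end samples were all below its 3M single-end samples. Without 29M replicate 3 the 29M log2 fold change of Btg2 was 0.15. The median log2 fold change of the list was -0.00 at 24M (-0.00185) and -0.01 at 29M. An unadjusted p under 0.05 was found for 10 of 28 at 24M (26.1% of all genes) and 4 of 26 at 29M (17.3% of all genes), and DESeq2 called 2 and 0. With 1 library left out, 1 to 3 of the list were called at 24M, and 0 at 29M. Leaving out 3M replicate 5 gave 2 higher and 1 lower at 24M, and leaving out 3M replicate 4 gave 1 in each direction.

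Of 18 p53 regulators and kinases, 0 were called at each age by edgeR and by DESeq2 (4 and 2 at an unadjusted p under 0.05), and edgeR called 1 higher at 24M without 3M replicate 5 or with the 24M libraries kept apart. The smallest p was that of Chek1, a checkpoint kinase, at 24M (log2 fold change 0.65, adjusted p = 0.0525 with edgeR) and of Mdm4, a p53 antagonist related to Mdm2, at 29M (0.21, adjusted p = 0.0744). Of the cyclins and cyclin-dependent kinases, 0 of 15 were called at 24M and 0 of 14 at 29M (4 and 2 at an unadjusted p under 0.05, DESeq2 0 and 0), and 1 was called higher at 24M without 3M replicate 5. Ccne2, a cyclin of the S phase entry, had the smallest p at 24M but met neither criterion, and its samples overlapped (log2 fold change 0.49, adjusted p = 0.0880 with edgeR). Ccnd2, a D-type cyclin and partner of CDK4 and CDK6, had -0.26 at 29M (adjusted p = 0.0138), which is under the fold change threshold.

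In the RB and E2F family 0 of 15 genes were called at each age (3 and 1 at an unadjusted p under 0.05, DESeq2 0 and 0). Lin54, a DNA-binding subunit of the DREAM complex, had a 24M log2 fold change of 0.39 (adjusted p = 0.0354 with edgeR), under the fold change threshold, and Tfdp2, an E2F partner, had 0.17 at 29M (adjusted p = 0.230). Among genes of p27 turnover 0 of 11 were called at each age (4 and 0 at an unadjusted p under 0.05, DESeq2 0 and 0), and the smallest p was that of Ddb1 at both, with log2 fold changes of -0.12 and -0.03. In the nuclear lamina list, which holds the partners of Lmnb1, 0 of 16 were called at each age (4 and 4 at an unadjusted p under 0.05, DESeq2 0 and 0). Syne1, which encodes the linker protein nesprin-1, had 0.21 at 24M (adjusted p = 0.114 with edgeR) and Lmna, the gene of lamins A and C, 0.23 at 29M (adjusted p = 0.0718).

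Polycomb proteins and their antagonists set the chromatin state of the Cdkn2a locus. Of 20 genes tested, 1 was called higher and 2 lower at 24M, beside 1.34% and 0.638% of all genes. At 29M, 0 were called higher and 1 lower, beside 1.34% and 0.113% of all genes. An unadjusted p under 0.05 was found for 10 of 20 at 24M and 5 of 20 at 29M with edgeR, beside 26.1% and 17.3% of all genes. Cbx8, a chromodomain subunit of Polycomb repressive complex 1, was called lower at both ages, from 7.09, 10.2, 9.47, 9.99 and 8.55 CPM at 3M to 5.00, 5.54, 5.00, 6.00 and 4.73 CPM at 24M, and from 8.07, 8.44 and 8.18 CPM at 3M to 4.88, 6.28 and 5.74 CPM at 29M. The old and young samples did not overlap at either age (log2 fold change -0.78, SE 0.12, adjusted p = 0.00405 at 24M; -0.55, SE 0.13, adjusted p = 0.0408 at 29M, with edgeR). The 29M call was lost in 5 of 6 fits that left out 1 library each (all but 29M replicate 2), was not made by DESeq2 (adjusted p = 0.179) and was lost with all 4 groups in 1 fit (adjusted p = 0.121). Cbx2, a related subunit, fell from 3.12 ± 0.376 to 1.74 ± 0.309 CPM at 24M (SD, n = 5 each; log2 fold change -0.83, SE 0.16, adjusted p = 0.0154 with edgeR). Bmi1, another subunit of that complex and a repressor of Cdkn2a, rose from 39.7 ± 8.49 to 58.6 ± 5.32 CPM at 24M (log2 fold change 0.56, SE 0.12, adjusted p = 0.0221 with edgeR). The 3M paired-end samples were at 53.8 ± 1.12 CPM (SD, n = 3), and its log2 fold change at 29M was 0.07 (adjusted p = 0.520). The 24M call of Cbx2 was lost without 24M replicate 2, and that of Bmi1 without 3M replicate 1, 24M replicate 2 or 24M replicate 3. At 29M the log2 fold change of Cbx2 was -0.30 (adjusted p = 0.563 with edgeR), and -0.39 to -0.175 with 1 library left out.

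**Figure D5:**
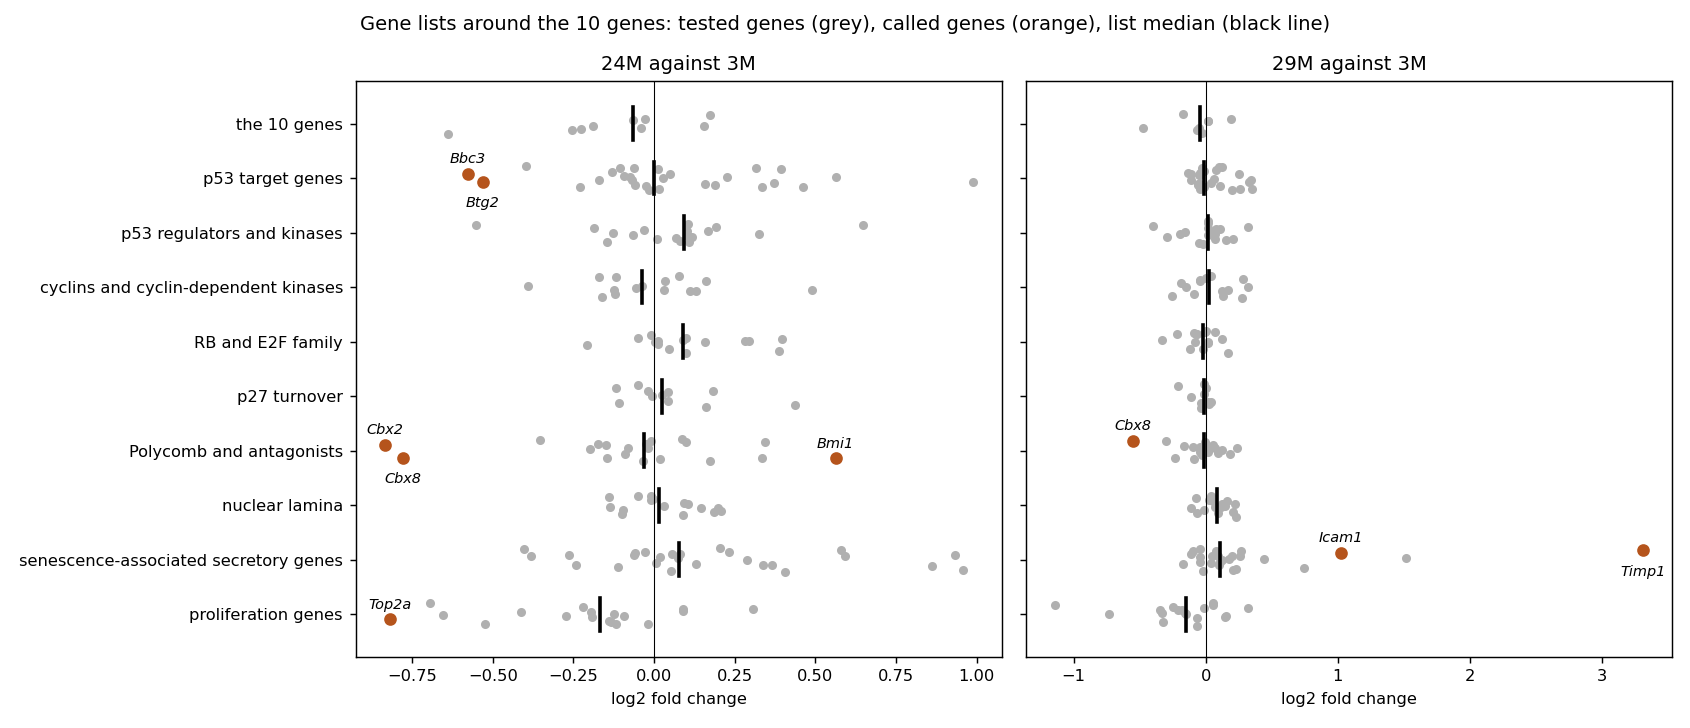
Log2 fold change at 24M (left) and 29M (right) of every tested gene in the 10 genes and in the lists around them, in grey, with called genes in orange and named, and a black line at each list's median. Axes differ between panels; the 10 genes have no called member at either age.

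Senescence-associated secretory genes, which encode factors that senescent cells release, held 2 calls at 29M. Of 44 genes, 25 were tested there, with 2 called higher and 0 lower, beside 1.34% and 0.113% of all genes. At 24M, 26 were tested, with 0 called, beside 1.98% of all genes. Timp1, an inhibitor of metalloproteases, was at 0.170, 0.131 and 0 CPM at 3M paired-end and at 0.925, 1.14 and 1.31 CPM at 29M. Timp1 passed the filter on low counts only through the 29M samples, in which it was high, so its call (log2 fold change 3.32, SE 0.52, adjusted p = 0.00364 with edgeR) adds no support to the count of the list. The fold rests on a 3M group near 0, and under the stricter filter Timp1 was not tested. Icam1, an adhesion molecule, rose from 2.05 ± 0.0809 to 4.14 ± 0.867 CPM (SD, n = 3 each; log2 fold change 1.02, adjusted p = 0.0189 with edgeR), a call lost in 4 of 6 fits without 1 library (3M replicates 2 and 3 and 29M replicates 1 and 3). DESeq2 called 1 gene of the list at 29M, Timp1, and 0 at 24M; Icam1 had an adjusted p of 0.0536 there, and of 0.0746 in edgeR with all 4 groups in 1 fit. At 24M the count of called secretory genes was 0 to 4 when 1 library was left out. It was 5 of 28 with the 24M libraries kept apart and 5 of 42 without the filter on low counts. All these calls were toward higher expression. Of all genes, 313 of 15749 were called higher with the libraries kept apart and 265 of 26441 without the filter. An unadjusted p under 0.05 was found for 8 of 26 at 24M, beside 26.1% of all genes, and for 7 of 25 at 29M, beside 17.3%. The 29M count of called secretory genes was 1 to 3 when 1 library was left out (1 without 3M replicates 2 or 3 or 29M replicates 1 or 3) and 6 of 43 without that filter, all higher. Of all genes, 368 of 24470 were called higher at 29M without the filter. Genes with low counts enter there, so the counts without the filter add no support to the list at either age.

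Proliferation genes are used by dividing cells for DNA replication and mitosis. Of 22, 18 were tested at each age, with 0 called higher and 1 lower at 24M and 0 called at 29M (4 and 2 at an unadjusted p under 0.05, DESeq2 2 and 0). Of the 18, 15 had a log2 fold change below 0 at 24M (median -0.166) and 13 at 29M (median -0.153). The median of all genes tested was -0.00319 at 24M and -0.0021 at 29M. A shift of the list as a whole was not tested. Top2a, a topoisomerase of dividing cells, fell from 2.02 ± 0.360 to 1.17 ± 0.322 CPM at 24M (SD, n = 5 each; log2 fold change -0.82, SE 0.22, adjusted p = 0.0434 with edgeR), a call lost in 7 of 11 fits without 1 library (3M replicates 1, 2 and 4 and 24M replicates 2, 3, 4 and 5). At 29M its log2 fold change was -1.14 (adjusted p = 0.0734). The 24M count of the list was 0 to 2 with 1 library left out (2 lower without 3M replicate 5) and 3, all lower, with the 24M libraries kept apart.

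Some cell type markers changed with age in the same libraries. The summed level of 10 microglia markers was 459.5 ± 24.8 CPM at 3M single-end and 570.6 ± 15.2 at 24M (SD, n = 5 each), with 2 of 10 genes called higher (P2ry12 and C1qa), and 416.2 ± 9.43 at 3M paired-end and 554.6 ± 12.2 at 29M (n = 3 each), with 3 of 10 called higher (Tmem119, C1qa and C1qb). Of all genes, 1.34% were called higher at each age. At both ages all 10 microglia markers had a log2 fold change above 0, and 9 had an unadjusted p under 0.05 with edgeR, beside 26.1% of all genes at 24M and 17.3% at 29M. Gfap, the astrocyte filament protein, rose with log2 fold changes of 0.66 and 0.80, and Gpr17, a marker of differentiating oligodendrocyte precursors, fell with -0.997 and -0.953 (adjusted p = 8.80e-05, 7.42e-07, 0.000109 and 2.79e-05 with edgeR). Each was the 1 gene called of the 10 markers of its cell type at both ages. The median log2 fold change was 0.05 at 24M and 0.02 at 29M for the astrocyte markers, and -0.08 and -0.04 for the precursor markers, whose sum was 653.1 ± 34.2 CPM at 3M single-end, 635.2 ± 31.8 at 24M, 631.7 ± 26.9 at 3M paired-end and 613.9 ± 18.6 at 29M. The part of these markers in the values of the 10 genes and of the lists was not tested.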

How the data were processed

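The authors aligned reads with STAR (version 2.3.0 in the submitters' processing notes, build GRCm38.p2), used HTSeq to assign reads to genes and deposited the raw counts of each gene and library. The annotation of this step was not given in the sources used here; the study's methods name the overlap mode as the non-default setting and no strand setting. Summary lines that name no gene stayed out, and reads outside genes made up 8.59% to 15.9% per library. Identifiers were named from GENCODE M21 (36602 of 38355).

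Counts were tested with edgeR 4.0.16 (R 4.3.3; quasi-likelihood, TMM, default filter on low counts, Benjamini-Hochberg adjustment over all genes tested), with each old group set against young mice of the same library type. CPM used TMM library sizes, and RPKM divided them by GENCODE exon length. Genes under the filter got an exact permutation test. The rounded mean of 24M replicates 1 and 4 entered as 1 sample: among genes with 20 to 99 counts in a pair, their squared difference over its counting variance was 0.406, against 1.23 or more in the other 135 pairs. DESeq2 1.42.0, DESeq2's size factors, other filters, all 4 groups in 1 fit, the replicate block, the pair kept apart or left out, no fold change threshold and each library left out were alternatives. The calling of changed genes in both age comparisons was tested on simulated data. Of 100 genes changed 2-fold, 85 were recovered in the 24M comparison and 89 in the 29M comparison. Of 100 genes changed 1.5-fold, 64 and 69 were. False calls numbered 9 at 24M and 8 at 29M.

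The 10 genes and all lists were chosen with earlier results of these data known. Named genes are the 10, the called genes of each pathway list or else the gene with the smallest p at each age, and the 3 genes most like the 2 of the 10 with the smallest p. Cell type and region markers were named after their values were seen. The pathway lists hold p53 targets, p53 regulators, cyclins and kinases, RB and E2F genes, p27 turnover, Polycomb, lamina, secretory and proliferation genes. A few genes not reported here were left out of the lists and marker sums.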

Additional observations from a re-analysis of the deposited data

Results flagged for a closer look

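In groups of 5 samples, the highest and lowest sample were compared with the rest of the group, and 4 of 76 groups held a sample past the limit (a gap of over 0.71 of the range), where chance gives about 1 in 20 groups, or 3.8. Cdkn1a was at 16.41 CPM in 3M single-end sample 4, while the other 3M single-end samples were at 7.548 to 9.196 CPM. Lmnb1 was at 10.95 CPM in the same sample, against 9.412 to 9.819 CPM in the others. The sum of the striatum markers in that sample was 481.7 CPM, against 211.8 to 257.4 CPM. The remaining sample was 3M single-end sample 2, with Icam1 at 3.741 CPM, against 2.001 to 2.402 CPM in the others.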

How the results depend on the processing

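The count of the 10 genes called at 24M was 0, and it was 1 (Cdkn1a) with DESeq2, 1 with all 4 groups in 1 fit, and 0 to 1 with 1 library left out; at 29M it was 0 under every alternative run, 0 to 0 with 1 library left out. Genes called at 24M, 310 in all, were 875 without the fold change threshold, 518 with all 4 groups in 1 fit, 163 with the 24M pair left out, and 119 to 568 with 1 library left out (119 without 24M replicate 2, and, of the 3M single-end libraries, 568 without replicate 5, 186 without replicate 1 and 195 without replicate 4). At 29M, 219 genes became 441 without the filter, 451 without the fold change threshold, 86 with all 4 groups in 1 fit, and 124 to 221 with 1 library left out (125 without 29M replicate 1, 124 without 29M replicate 3). The causes were not tested, other than the number of genes or samples that an alternative changes. Signs turned with 1 library left out for effects near 0. The log2 fold changes ranged at 24M from -0.00587 (without 3M single-end replicate 3) to 0.315 for Cdkn1c, from -0.0738 to 0.0101 for Mdm2 and from -0.167 to 0.00417 for Cdkn2c, and at 29M from -0.0534 to 0.0968 for Cdkn1a, from -0.0833 to 0.0430 for Lmnb1, from -0.0878 to 0.00143 for Cdkn2d, from -0.0364 to 0.0528 for Trp53 and from -0.0411 to 0.206 for Bbc3. No gene of the 10 differed between the 29M and 24M effects under any alternative run.

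Replicate numbers do not pair the samples: same-numbered samples correlated at -0.179 to 0.0574 (24M) and -0.1 to 0.113 (29M). With the replicate block, 83 genes were called at 24M and 225 at 29M, with 0 of the 10 genes at either age. Under it, Cdkn1a at 24M was at -0.34 log2 units (adjusted p = 0.254 with edgeR) and Mdm2 turned to 0.0116. In that 24M fit, 3M single-end replicate 4 and 24M replicate 6 had no sample of the same number. They therefore carried no information on the age difference, so the block also changed which samples counted. Bbc3, Btg2, Bmi1, Cbx2, Cbx8 and Top2a lost their 24M calls under that block, and Cbx8 its 29M call (-0.55, adjusted p = 0.0579). Cbx8 and Icam1 also lost their 29M calls with DESeq2 and with all 4 groups in 1 fit, and Bmi1, Btg2 and Top2a lost their 24M calls with the 24M pair left out (adjusted p of 0.0569, 0.0890 and 0.0828). Cdkn2a had at most 3 reads in any library, and the part of sequencing depth in this was not tested. How calls depend on level was not tested.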

Other observations

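The genes whose levels followed Cdkn1a and Lmnb1 most closely, over 16 samples and 14897 genes on the log2(CPM + 0.5) scale centred within library type, were picked by Pearson r. For Cdkn1a they were Stk32c (r = 0.938), Lamp5 (0.933) and Ngef (0.927), and without 3M single-end replicate 4 their r was 0.878, 0.787 and 0.789. For Lmnb1 they were Sfmbt2 (r = 0.912), Gm12371 (0.874) and Arntl (0.859), a transcription factor of the circadian clock, and without that replicate their r was 0.878, 0.821 and 0.848. These samples share libraries and differ in age, so the values are a description.

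Endothelial Cldn5, a tight junction protein, fell at 24M from 33.7 ± 7.67 to 22.3 ± 2.09 CPM (SD, n = 5 each; log2 fold change -0.60, adjusted p = 0.0242 with edgeR) and was at -0.27 log2 units at 29M (adjusted p = 0.147). It was the 1 gene called of 10 endothelial markers. Of these, 7 were above 0 and 6 had an unadjusted p under 0.05 at 24M (26.1% of all genes did), their median on the log2 scale was 0.13, and their sum was 296.0 ± 25.4 CPM at 3M and 317.6 ± 14.2 at 24M. At 29M, 1 of 10 was above 0 (median -0.07). Of 10 fibroblast and meningeal markers 1 was called at 24M, Lum, which encodes lumican (0.85 log2 units higher, adjusted p = 0.0306 with edgeR), and 0 at 29M.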
